A study of Mus musculus with 16 samples.

Results

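Imprinted genes are expressed mainly or only from the copy inherited from one parent. The set described here holds 37 of the 27179 genes in a count table from mouse embryonic stem (ES) cells, picked by gene symbol from a list of known imprinted genes, and each of the 37 symbols had a row. As known from the field, 23 of them are expressed from the paternal copy and 11 from the maternal copy, and for 3 (Grb10, Gnas and Inpp5f) the expressed copy depends on the isoform or tissue. They comprise 30 protein-coding genes and 7 genes of long noncoding RNA (H19, Airn, Meg3, Rian, Mirg, Kcnq1ot1 and Peg13). The counts add both parental copies together, so no value below says which copy the RNA came from.

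Imprints are marks of DNA methylation set in the egg or sperm at imprinting control regions, and they are kept in the embryo through the wave of demethylation that clears most other sites. The zinc-finger protein ZFP57 binds the methylated copy and recruits TRIM28 (KAP1), the histone methyltransferase SETDB1 and the maintenance DNA methylation machinery. Many imprinted genes act on fetal and placental growth, and several lie in clusters in which a single control region governs a noncoding RNA and the protein-coding genes around it.

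The ES cells, grown without feeder cells on gelatin, came from culture in serum with LIF and were adapted to 2 media that hold naive pluripotency, the early epiblast's state. The medium named 2i/LIF was serum-free with LIF (leukaemia inhibitory factor), 3 uM CHIR99021 (a GSK3 inhibitor) and 1 uM PD0325901 (a MEK inhibitor), and serum/LIF+2i held the same inhibitors and LIF with 10% serum. Cells were collected before exit (0 h) or 12, 24 or 40 h after transfer to serum-free medium that lacked the inhibitors and LIF, which gave 8 groups of 2 libraries. The exit media differed in their base, since the base for cells from serum/LIF+2i contained DMEM without glutamine, which was then added, so the maintenance medium and the exit medium cannot be told apart as sources of a difference. The protocol text gives 24 or 40 h for cells from serum/LIF+2i, while samples titled 12 h exist for both media, and the titles were followed. No genotype or cell line name is given, and nothing says that the 2 replicates came from separate cultures, so p-values measure only the spread between these libraries, which may be technical. Library totals ran from 5931381 to 11142744 counts, at which the floor of 3 counts is below 1 CPM (counts scaled to library size, here with TMM factors). As a check of the cell type, the summed level of 5 ES cell markers (Pou5f1, Sox2, Utf1, Tdgf1 and Nanog) was 1949 to 2007 CPM in 2i/LIF at 0 h and 2318 to 2412 CPM in serum/LIF+2i, and 1570.0 to 1593 and 1492 to 1536 CPM at 40 h. At 40 h, 2 of the 5 were called higher and 2 lower in 2i/LIF, and 1 higher and 3 lower in serum/LIF+2i. Of all tested genes, 34.1% were called higher and 34.7% lower in 2i/LIF, with 35.3% and 35.3% in serum/LIF+2i.

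Most of the imprinted genes rose during exit, in both media. Of the 37, 35 had enough counts to be tested, and Airn and Snrpn did not. At 40 h of exit from 2i/LIF, 24 of the 35 were called higher and 6 lower, while 34.1% of all tested genes were called higher and 34.7% lower (68.8% in either direction). For serum/LIF+2i at 40 h, 24 of the 35 were called higher and 3 lower, while 35.3% of all tested genes were called higher and 35.3% lower (70.5% in either direction). The 35 had a median log2 fold change of 1.25 from 2i/LIF and 1.90 from serum/LIF+2i, and that of all tested genes was 0.005 and -0.003. In bulk RNA, fewer cells of a type and less RNA per cell cannot be told apart, and this holds for every change below.

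Of the 24 called higher at 40 h in each medium, 22 (91.7%) were called higher in both. Of all tested genes called higher at 40 h, the share called higher in both media was 79.1% for 2i/LIF and 76.4% for serum/LIF+2i, and whether the members differ from that was not tested. Plagl1, Zrsr1 and Slc22a18 were the 3 called lower in both, and Impact was called lower in 2i/LIF and higher in serum/LIF+2i. Both libraries at 40 h lay above both at 0 h for 26 of the 35 tested members in 2i/LIF and for 25 in serum/LIF+2i, and both lay below for 7 and 4, while of all tested genes 41.7% and 41.8% lay above and 41.6% and 41.8% below. Among the 11 genes expressed from the maternal copy, 6 were called higher and 3 lower in 2i/LIF, against 6 and 1 in serum/LIF+2i. Among the 21 tested genes expressed from the paternal copy, 15 were called higher and 3 lower in 2i/LIF, against 15 and 2 in serum/LIF+2i. For each medium, 54.5% of the maternal class and 71.4% of the paternal class were called higher. All tested genes had 34.1% (2i/LIF) or 35.3% (serum/LIF+2i). Calls in either direction made up 81.8% of the maternal class after 2i/LIF, beside a background of 68.8%. After serum/LIF+2i they made up 63.6%, below the background of 70.5%. The paternal class had 85.7% and 81% called in either direction. Rises thus came from genes of either parental class, and whether the classes differ was not tested.

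**Figure D1:**
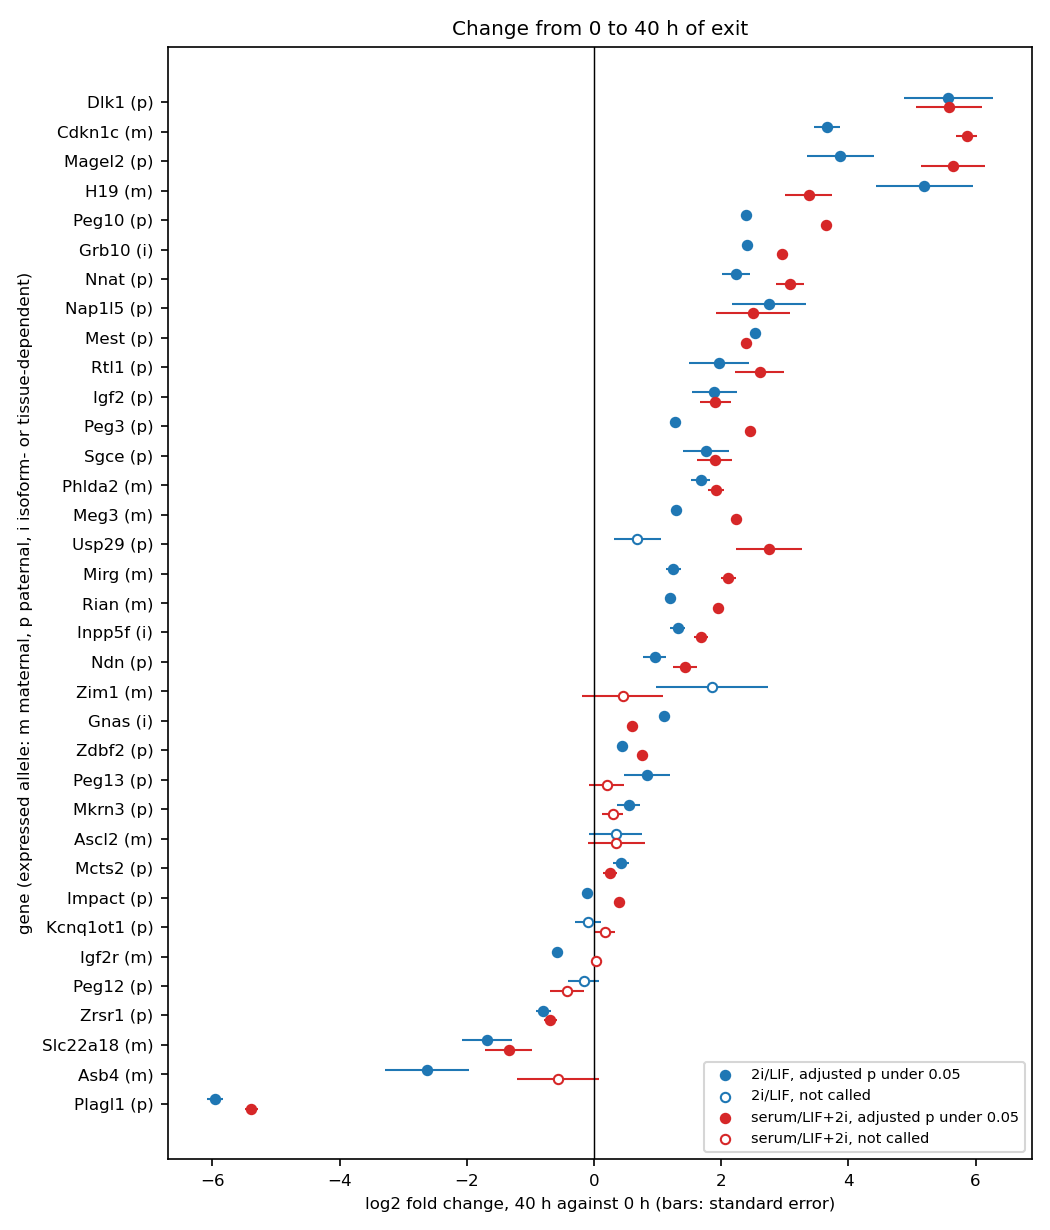
Log2 fold change from 0 to 40 h of exit (x axis) for the 35 tested imprinted genes (y axis), in 2i/LIF (blue) and serum/LIF+2i (red), with bars for the standard error and filled points for an adjusted p under 0.05. The 22 genes called higher in both media lie mainly in the upper part, mixed with some not called in both, such as Usp29 and Zim1. Dlk1 is highest in 2i/LIF at 5.57 and Cdkn1c in serum/LIF+2i at 5.86, and Plagl1 stands lowest at -5.95 and -5.39.

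The rises built up over time. At 12 h of exit from 2i/LIF, 12 of the 35 were called higher and 7 lower (background 21% and 23.7%, 44.7% in either direction), and at 24 h 21 and 5 (background 29.2% and 29.6%, 58.8% in either direction). For cells from serum/LIF+2i, 15 of the 35 were called higher and 6 lower at 12 h (background 25.3% and 25.9%, 51.2% in either direction), and 20 and 5 at 24 h (background 32.4% and 32%, 64.4% in either direction). Over the members, the median change on the log2 scale was 0.04 at 12 h and 0.52 at 24 h for 2i/LIF, with 0.32 and 0.58 for serum/LIF+2i. All these comparisons of one medium share their 0 h libraries. As a sum, the 37 genes held 1784 to 1817 CPM at 0 h and 3372 to 3527 CPM at 40 h in 2i/LIF, and 1571 to 1595 and then 4459 to 4493 CPM in serum/LIF+2i. Meg3, Rian, Grb10 and Peg10 together made up 33.1% to 33.6% of that sum at 0 h and 51.7% to 54.3% at 40 h in 2i/LIF, and 28.3% to 28.5% and then 58.6% to 59.1% in serum/LIF+2i. These 4 rank highest by mean CPM among serum/LIF+2i cells after 40 h, from 384 (Peg10) to 1043 (Grb10). Before exit, 2i/LIF cells had more Impact (220 CPM) and Zdbf2 (207 CPM) than Grb10 (95.3 CPM) or Peg10 (46.7 CPM). Genes with the highest end level can gain share through that choice alone, so no conclusion is drawn from the share.

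Several members were at or under 3 counts in both libraries of a group, which is the floor used here for detection. In 2i/LIF these were H19, Airn, Dlk1, Zim1, Snrpn and Magel2 at 0 h, H19, Airn and Dlk1 at 12 h, Airn and Asb4 at 24 h, and Airn at 40 h. In serum/LIF+2i they were Airn, Dlk1, Snrpn and Magel2 at 0 h, Airn and Snrpn at 12 h, Airn at 24 h and none at 40 h. For these genes a fitted fold change depends on the small number added to each count, so the ratio of summed counts per library size is given beside it, with an exact 95% interval that covers counting error only.

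Promoter sequence was compared for the 30 members with a window in the RefSeq table of GRCm38.p6, each window running from 250 bases before to 50 after a start site. The hexamer TGCCGC, which ZFP57 recognises when its CpG is methylated, was searched on both strands (GCGGCA on the other), and 11 of the 30 members (36.7%) held it in at least 1 window, against 13.1% of 27025 genes. By window, the share was 12 of 45 (26.7%) for the members and 11.6% for all 32851 windows of 300 bases. The members' windows were also richer in CpG, with a median of 13 CpG against 7 in all windows, and the hexamer itself contains a CpG. A match is a description of letters and not a binding site.

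Windows are shown for genes that moved in different ways: Mest and Nnat, which rose in both media, Plagl1, which fell in both, and Meg3, which fell at 12 h and then rose. Capitals mark the hexamer.
Mest, chr6:30737800-30738099, plus strand: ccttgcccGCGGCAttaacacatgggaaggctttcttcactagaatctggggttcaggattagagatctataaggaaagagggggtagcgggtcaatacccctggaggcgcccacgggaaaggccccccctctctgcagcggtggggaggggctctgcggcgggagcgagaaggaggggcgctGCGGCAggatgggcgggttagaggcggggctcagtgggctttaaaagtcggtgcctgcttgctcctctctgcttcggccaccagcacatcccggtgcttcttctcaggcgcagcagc
Nnat, chr2:157559828-157560127, plus strand: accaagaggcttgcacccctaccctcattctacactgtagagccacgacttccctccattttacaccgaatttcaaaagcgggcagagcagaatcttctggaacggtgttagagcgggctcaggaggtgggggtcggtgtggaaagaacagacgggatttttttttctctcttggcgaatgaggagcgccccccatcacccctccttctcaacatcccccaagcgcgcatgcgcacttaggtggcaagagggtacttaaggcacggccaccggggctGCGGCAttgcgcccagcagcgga
Plagl1, chr10:13090582-13090881, plus strand: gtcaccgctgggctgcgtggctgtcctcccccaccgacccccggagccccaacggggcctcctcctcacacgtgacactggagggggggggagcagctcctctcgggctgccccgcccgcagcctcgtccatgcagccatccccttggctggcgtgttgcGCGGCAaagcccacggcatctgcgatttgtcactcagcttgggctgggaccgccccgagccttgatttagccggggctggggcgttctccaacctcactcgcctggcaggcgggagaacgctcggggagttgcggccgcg
Meg3, chr12:109540746-109541045, plus strand: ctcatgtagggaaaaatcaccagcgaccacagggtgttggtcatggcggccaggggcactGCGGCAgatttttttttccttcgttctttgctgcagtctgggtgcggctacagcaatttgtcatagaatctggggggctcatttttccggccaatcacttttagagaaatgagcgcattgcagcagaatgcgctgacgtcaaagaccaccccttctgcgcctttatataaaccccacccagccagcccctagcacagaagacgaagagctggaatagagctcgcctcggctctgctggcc
Mest held 2 matches in this window and the others 1 each, and these windows were chosen among those with a match. Another Mest window (chr6:30733256-30733555) and a second Meg3 window (chr12:109545148-109545447) held 0. So did the windows of Zrsr1 and Slc22a18, which like Plagl1 were called lower in both media. Whether a match goes with the direction of change was not tested.

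Peg3 and Usp29, both expressed from the paternal copy, start head to head, and their windows share 263 bases. The Peg3 window is shown because one stretch serves both start sites, with capitals for the 163 bases between the start sites of these windows (positions 6730419 and 6730583) and no TGCCGC in either window. The gene spans given further down begin at other positions, so both run into the capitals.
Peg3, chr7:6730370-6730669, minus strand: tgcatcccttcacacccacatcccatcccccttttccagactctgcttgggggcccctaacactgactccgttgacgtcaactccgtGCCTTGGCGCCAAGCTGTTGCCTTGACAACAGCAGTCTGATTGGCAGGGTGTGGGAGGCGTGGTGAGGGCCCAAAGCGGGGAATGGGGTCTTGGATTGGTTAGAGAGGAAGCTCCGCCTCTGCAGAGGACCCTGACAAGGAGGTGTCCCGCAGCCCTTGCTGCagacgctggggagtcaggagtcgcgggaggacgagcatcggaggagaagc

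**Figure D2:**
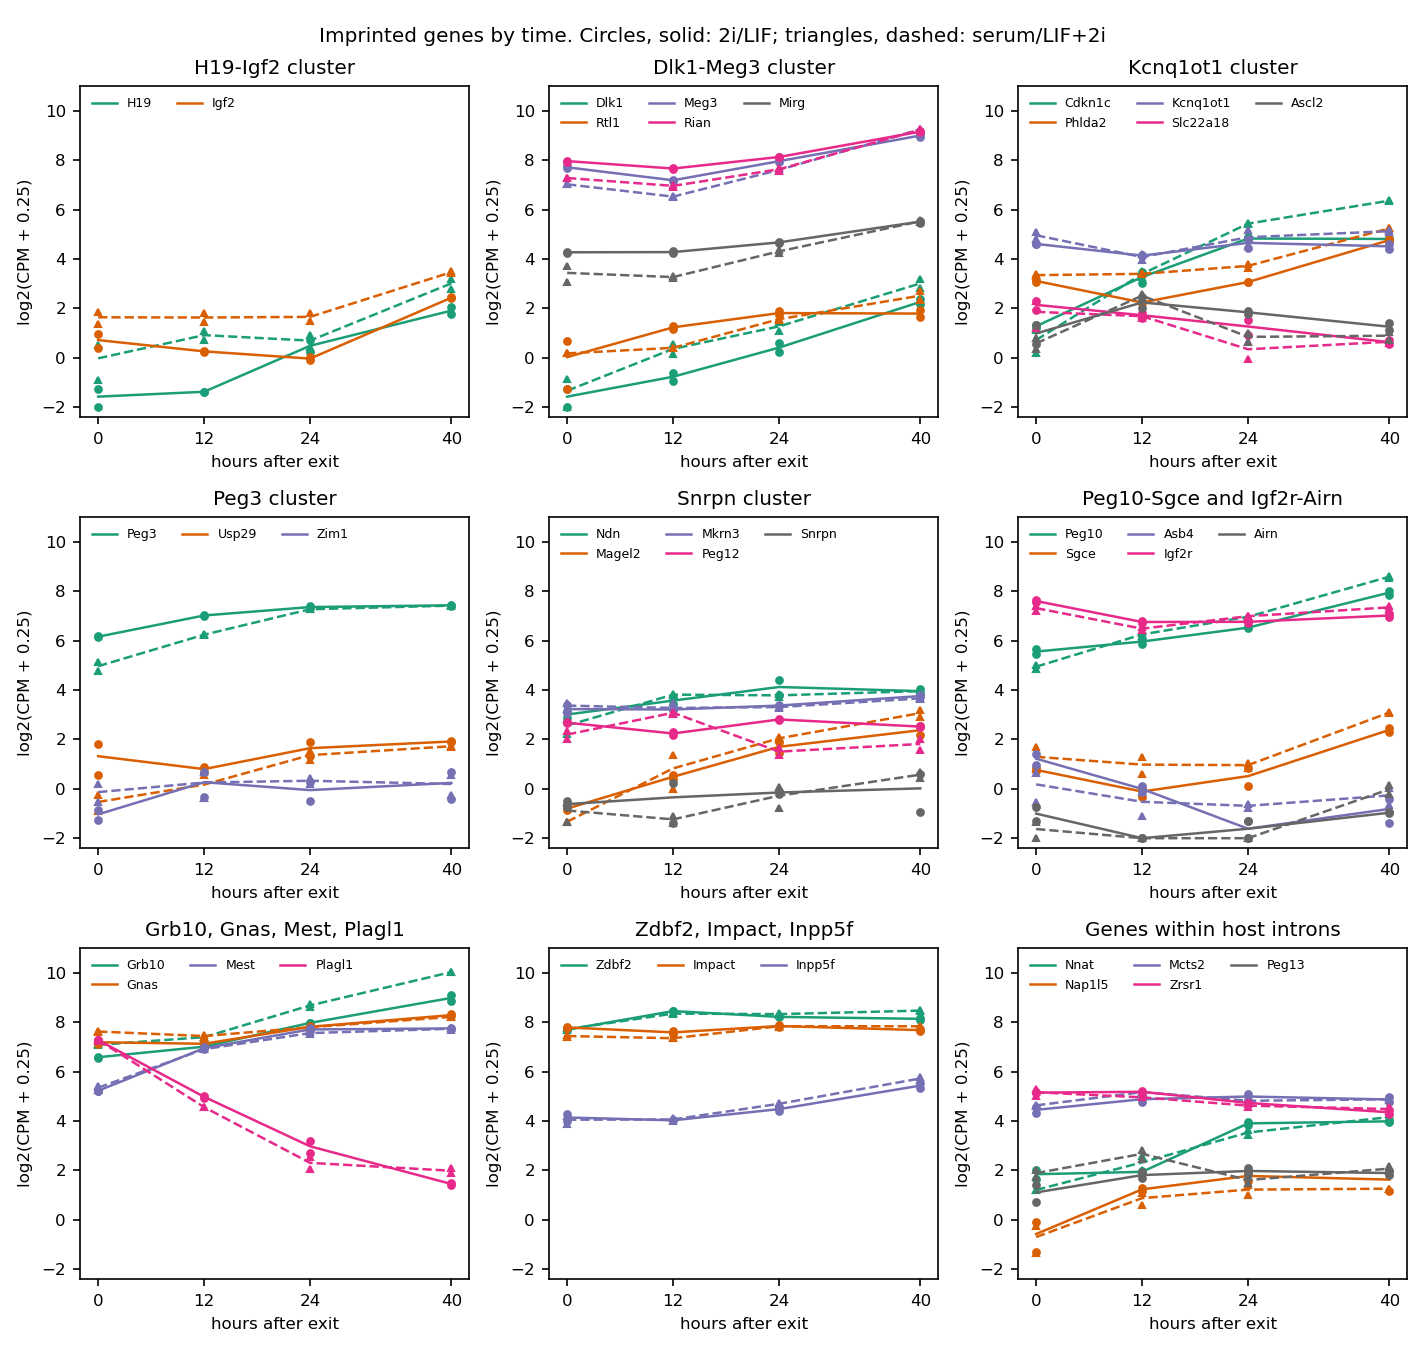
Level of each of the 37 imprinted genes as log2(CPM + 0.25) on the y axis against hours after exit on the x axis, by cluster, with points for libraries and lines for group means (circles and solid lines, 2i/LIF; triangles and dashed lines, serum/LIF+2i). The noncoding RNAs of the Dlk1-Meg3 cluster dip at 12 h or stay level and then climb, Cdkn1c, Peg10 and Grb10 climb further in serum/LIF+2i, and Plagl1 descends in both media.

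The Dlk1-Meg3 cluster on chromosome 12 makes noncoding RNA from the maternal copy and protein-coding RNA from the paternal copy, and all 5 members were called higher at 40 h in both media. The share of all tested genes called higher was 34.1% after 2i/LIF and 35.3% after the other medium. Meg3, a long noncoding RNA at chr12:109540996-109571729, fell first and rose later. In 2i/LIF, Meg3 was at 214 and 204 CPM at 0 h, 147 and 143 at 12 h, 254 and 242 at 24 h and 489.9 and 530.2 at 40 h. Meg3 in serum/LIF+2i was at 129 and 129.7 CPM at 0 h, 92.7 and 90.7 at 12 h, 199 and 189.8 at 24 h and 614 and 602 at 40 h. The 12 h libraries were the lowest and the 40 h libraries the highest of each medium, with no overlap between the times. Relative to 0 h, Meg3 fell by 0.53 on the log2 scale at 12 h in 2i/LIF (adjusted p = 1.75e-18) and by 0.50 for serum/LIF+2i (adjusted p = 4.7e-15). At 40 h its log2 fold change was 1.29 ± 0.04 (SE; adjusted p = 8.05e-56) in 2i/LIF and 2.23 ± 0.04 (adjusted p = 1.04e-79) in serum/LIF+2i.

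Rian, the host of a set of small nucleolar RNAs (chr12:109603945-109661716), followed the same course. In 2i/LIF, Rian was at 252 and 246 CPM at 0 h, 207 and 197 at 12 h, 282 and 276 at 24 h and 563 and 575 at 40 h. Rian in serum/LIF+2i was at 154 and 156 CPM at 0 h, 120.2 and 128 at 12 h, 188 and 208 at 24 h and 610.2 and 589 at 40 h. As for Meg3, the 12 h libraries lay below and the 40 h libraries above those of 0 h. The log2 fold change at 40 h was 1.19 ± 0.04 (adjusted p = 1.64e-53) in 2i/LIF and 1.95 ± 0.04 (adjusted p = 2.04e-74) in serum/LIF+2i. Mirg, the host of a microRNA cluster further downstream (chr12:109734981-109749458), was expressed at a lower level and showed no called change at 12 h. In 2i/LIF, Mirg was at 18.8 and 19.3 CPM at 0 h, 18.6 and 19.7 at 12 h, 25.8 and 24.6 at 24 h and 44 and 46.7 at 40 h. Mirg in serum/LIF+2i was at 8.23 and 12.9 CPM at 0 h, 9.60 and 9.15 at 12 h, 18.8 and 20.3 at 24 h and 47 and 44.6 at 40 h. Both 40 h libraries were above all others of their medium. Mirg's log2 fold change at 40 h was 1.25 ± 0.11 (adjusted p = 7.19e-19) in 2i/LIF and 2.11 ± 0.12 (adjusted p = 2.99e-33) in serum/LIF+2i.

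Both paternally expressed genes of the cluster started from few counts. Dlk1, a membrane protein related to Notch ligands (chr12:109452485-109463336), was at the floor before exit. In 2i/LIF, Dlk1 had 1 and 0 counts at 0 h, 2 and 3 at 12 h, 9 and 6 at 24 h and 39 and 31 at 40 h. Dlk1 in serum/LIF+2i had 2 and 0 counts at 0 h, 9 and 8 at 12 h, 17 and 24 at 24 h and 79 and 91 at 40 h. It climbed at each later time, and its 24 and 40 h libraries were clear of those at 0 h. The fitted log2 fold change at 40 h was 5.57 ± 0.70 (adjusted p = 5.59e-12) in 2i/LIF and 5.58 ± 0.52 (adjusted p = 1.55e-18) in serum/LIF+2i, and the ratio of summed counts was 56.5 (95% interval 9.82 to 2260) and 52.8 (95% interval 14.4 to 439). With so few counts at 0 h these fits move with single libraries, to 8.21 (adjusted p = 1.4e-08) and 4.61 (adjusted p = 6.86e-07) without replicate 1 or 2 of 2i/LIF at 0 h, and to 8.97 (adjusted p = 1.2e-15) and 4.65 (adjusted p = 2.48e-13) without replicate 1 or 2 of serum/LIF+2i at 0 h. Rtl1, a protein derived from a retrotransposon and needed in the placenta (chr12:109564900-109604418), was likewise low. In 2i/LIF, Rtl1 had 1 and 9 counts at 0 h, 16 and 15 at 12 h, 25 and 20 at 24 h and 23 and 26 at 40 h. Rtl1 in serum/LIF+2i had 6 and 6 counts at 0 h, 8 and 10 at 12 h, 24 and 27 at 24 h and 55 and 64 at 40 h. The 2 libraries of 2i/LIF at 0 h differed widely, yet each was below those at 12 to 40 h. Rtl1 rose at 40 h, with a log2 fold change of 1.97 ± 0.47 (adjusted p = 0.000121) in 2i/LIF, which was 1.21 (adjusted p = 0.0286) without replicate 1 at 0 h and 4.10 (adjusted p = 2.43e-05) without replicate 2. In serum/LIF+2i it was 2.60 ± 0.38 (adjusted p = 1.31e-09).

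Of the H19-Igf2 pair on chromosome 7, H19 is a maternally expressed noncoding RNA (chr7:142575530-142578146) and Igf2 a paternally expressed growth factor (chr7:142650768-142666816), and each was called higher at 40 h whatever the medium. In 2i/LIF, H19 had 1 and 0 counts at 0 h, 1 and 1 at 12 h, 10 and 6 at 24 h and 31 and 23 at 40 h. H19 in serum/LIF+2i had 8 and 2 counts at 0 h, 14 and 13 at 12 h, 10 and 16 at 24 h and 78 and 92 at 40 h. In 2i/LIF, H19 was at 1 count or fewer until 12 h and was clear of that at 24 and 40 h, whereas in serum/LIF+2i it stood out mainly at 40 h. Its fitted log2 fold change at 40 h was 5.20 ± 0.76 (adjusted p = 1.21e-09) in 2i/LIF, with a ratio of summed counts of 43.6 (95% interval 7.5 to 1750), and 3.38 ± 0.37 (adjusted p = 2.1e-14) in serum/LIF+2i. The first moved to 7.84 (adjusted p = 4.78e-07) and 4.23 (adjusted p = 1.82e-05) without replicate 1 or 2 of 2i/LIF at 0 h, and the second to 4.65 (adjusted p = 4.89e-13) and 2.71 (adjusted p = 4.88e-09) without replicate 1 or 2 of serum/LIF+2i at 0 h. In 2i/LIF, Igf2 was at 1.72 and 1.06 CPM at 0 h, 0.959 and 0.936 at 12 h, 0.694 and 0.760 at 24 h and 5.26 and 5.03 at 40 h. Igf2 in serum/LIF+2i was at 2.35 and 3.38 CPM at 0 h, 3.24 and 2.45 at 12 h, 2.54 and 3.26 at 24 h and 11 and 10.5 at 40 h. Igf2 showed no called change at 12 or 24 h, and its 40 h libraries were the highest of each medium. The log2 fold change at 40 h was 1.89 ± 0.36 (adjusted p = 1.4e-06) in 2i/LIF and 1.91 ± 0.24 (adjusted p = 3.83e-12) in serum/LIF+2i. In the GENCODE annotation of GRCm38, 62.8% of the exonic bases of Igf2 are shared with the same-strand gene Gm49394, and how reads there were assigned is not stated.

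Because H19, Igf2 and Dlk1 are also abundant in embryonic fibroblasts, the levels of 5 fibroblast markers (Col1a1, Col1a2, Thy1, Dcn and Lum) are set beside them. Their sum was 3.45 to 3.95 CPM at 0 h and 15.1 to 22.3 CPM at 40 h in 2i/LIF, and 2.50 to 2.65 and 10.6 to 11.7 CPM in serum/LIF+2i. Of the 5, 4 were tested, with 2 called higher and 0 lower at 40 h in 2i/LIF and 3 called higher and 0 lower in serum/LIF+2i. Dcn made up most of the sum in 2i/LIF, with 0 and 0 counts at 0 h and 107 and 66 counts at 40 h, and it had 0 and 0 and 64 and 41 counts in serum/LIF+2i. At 40 h Lum had 0 and 0 counts with 2i/LIF as the starting medium and 0 and 1 with serum/LIF+2i, and Col1a1 had 14 and 7 and 28 and 27. Sums of 5 trophoblast markers (Cdx2, Eomes, Elf5, Gata3 and Tfap2c) were 77.9 to 79.1 CPM at 0 h and 4.62 to 4.88 CPM at 40 h for 2i/LIF, and 70.5 to 76.2 and then 7.55 to 7.93 CPM for serum/LIF+2i, and those of 5 primitive endoderm markers stayed between 1.49 and 6.48 CPM in all groups. Among the 4 tested trophoblast markers, 0 were called higher, while 3 (after 2i/LIF) or 4 (after serum/LIF+2i) were called lower. The share of all tested genes called lower was 34.7% or 35.3%. Only 2 primitive endoderm markers were tested, with 0 called higher and 1 (after 2i/LIF) or 0 (after serum/LIF+2i) called lower. The part of other cell types in the rises of imprinted genes was not tested.

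Igf2r, the receptor that clears IGF2 (chr17:12682406-12769706), was the only member of its pair with enough counts to be tested. It is counted here among the maternally expressed genes, a class taken from the field that was not measured in these ES cells. In 2i/LIF, Igf2r was at 190.4 and 197 CPM at 0 h, 109 and 106 at 12 h, 105 and 111 at 24 h and 125 and 133 at 40 h. Igf2r in serum/LIF+2i was at 148 and 169.8 CPM at 0 h, 85.1 and 93 at 12 h, 126 and 127 at 24 h and 156 and 168 at 40 h. Each medium had its lowest Igf2r libraries at 12 or 24 h, and in serum/LIF+2i the 40 h libraries overlapped those at 0 h. At 12 h it fell in both media, with a log2 fold change of -0.85 ± 0.06 (adjusted p = 8.49e-27) in 2i/LIF and -0.83 ± 0.06 (adjusted p = 2.56e-25) in serum/LIF+2i. At 40 h the value was -0.59 ± 0.05 (adjusted p = 4.35e-18) in 2i/LIF and 0.03 ± 0.05 (adjusted p = 0.62) in serum/LIF+2i. Airn, the paternally expressed antisense RNA that silences Igf2r in cis in other tissues, reached 7 and 9 counts in serum/LIF+2i at 40 h and did not exceed 2 counts in any other library. The ratio of its summed counts at 40 and 0 h in serum/LIF+2i was 9.93 (95% interval 1.54 to 416).

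In the Kcnq1ot1 cluster on chromosome 7, where the paternally expressed noncoding RNA Kcnq1ot1 is known to silence its neighbours, the maternally expressed genes moved in different directions. Cdkn1c, which encodes the cyclin-dependent kinase inhibitor p57 (chr7:143458339-143461059), rose at each time in serum/LIF+2i, and in 2i/LIF it rose until 24 h and then stayed level. In 2i/LIF, Cdkn1c was at 2.07 and 2.28 CPM at 0 h, 7.81 and 11 at 12 h, 26.9 and 29.3 at 24 h and 26.8 and 28.8 at 40 h. Cdkn1c in serum/LIF+2i was at 1.91 and 0.881 CPM at 0 h, 9.33 and 11.2 at 12 h, 42.1 and 43.6 at 24 h and 80.1 and 83.5 at 40 h. From 24 h on, all libraries of serum/LIF+2i were above all those of 2i/LIF, and the 0 h libraries were the lowest in each medium. Cdkn1c's log2 fold change at 40 h was 3.66 ± 0.21 (adjusted p = 1.32e-33) in 2i/LIF and 5.86 ± 0.17 (adjusted p = 7.2e-62) in serum/LIF+2i, the latter 6.51 (adjusted p = 1.67e-84) when its replicate 1 at 0 h was left out. A share of 30.7% of its exonic bases lies opposite Gm44732, and whether the counting used strand is not stated.

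Phlda2, which restrains placental growth (chr7:143501545-143503145), rose late. In 2i/LIF, Phlda2 was at 8.10 and 8.66 CPM at 0 h, 4.52 and 4.41 at 12 h, 8.19 and 8.05 at 24 h and 25.8 and 28 at 40 h. Phlda2 in serum/LIF+2i was at 10.1 and 9.69 CPM at 0 h, 10.1 and 10.4 at 12 h, 13.7 and 12.1 at 24 h and 37.5 and 37.5 at 40 h. Its 12 h libraries were the lowest of 2i/LIF but not of serum/LIF+2i, and the 40 h libraries were the highest in both. Phlda2's log2 fold change at 40 h was 1.68 ± 0.15 (adjusted p = 3.43e-19) in 2i/LIF and 1.92 ± 0.13 (adjusted p = 2.7e-28) in serum/LIF+2i. Ascl2, a basic helix-loop-helix factor needed in the trophoblast (chr7:142966822-142969264), was highest at 12 h. In 2i/LIF, Ascl2 was at 2.24 and 1.22 CPM at 0 h, 5.21 and 3.74 at 12 h, 3.47 and 3.19 at 24 h and 2.38 and 1.90 at 40 h. Ascl2 in serum/LIF+2i was at 1.03 and 1.47 CPM at 0 h, 5.81 and 5.11 at 12 h, 1.77 and 1.32 at 24 h and 1.38 and 1.84 at 40 h. The 12 h libraries were the highest of each medium, and those at 40 h overlapped those at 0 h. Ascl2's log2 fold change was 1.39 ± 0.36 (adjusted p = 0.000834) in 2i/LIF and 2.11 ± 0.36 (adjusted p = 2.29e-07) in serum/LIF+2i at 12 h, and 0.34 ± 0.42 (adjusted p = 0.485) and 0.35 ± 0.44 (adjusted p = 0.488) at 40 h. The 12 h call in 2i/LIF was lost without replicate 2 at 0 h, at 0.99 (adjusted p = 0.0656).

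Kcnq1ot1 itself (chr7:143213111-143296547) was not called at 40 h. In 2i/LIF, Kcnq1ot1 was at 24.1 and 24.2 CPM at 0 h, 17.3 and 17.4 at 12 h, 28 and 21.7 at 24 h and 24.2 and 20.9 at 40 h. Kcnq1ot1 in serum/LIF+2i was at 33.9 and 27.8 CPM at 0 h, 15.3 and 18 at 12 h, 35.7 and 22.6 at 24 h and 35.7 and 33.6 at 40 h. Both media had their lowest Kcnq1ot1 libraries at 12 h, and the other times overlapped. The log2 fold change at 12 h was -0.48 ± 0.22 (adjusted p = 0.0849) in 2i/LIF and -0.88 ± 0.20 (adjusted p = 0.00125) in serum/LIF+2i, and at 40 h -0.09 ± 0.20 (adjusted p = 0.693) and 0.17 ± 0.16 (adjusted p = 0.37). Slc22a18, a membrane transporter expressed from the maternal copy, had 7 to 32 counts per library, and at 40 h its log2 fold change was -1.67 ± 0.39 (adjusted p = 9.14e-05) in 2i/LIF and -1.34 ± 0.37 (adjusted p = 0.00082) in serum/LIF+2i. The second call was lost when replicate 2 at 0 h was left out, at -0.63 (adjusted p = 0.286).

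Peg3 and Usp29, whose shared window is shown above, were both lower in serum/LIF+2i than in 2i/LIF before exit. Peg3, a zinc-finger protein (chr7:6703892-6730462), rose in both media and reached a like level from different starts. In 2i/LIF, Peg3 was at 72 and 70.0 CPM at 0 h, 131 and 127 at 12 h, 167 and 160.0 at 24 h and 175 and 168 at 40 h. Peg3 in serum/LIF+2i was at 26.9 and 35 CPM at 0 h, 73.8 and 76.4 at 12 h, 154 and 153 at 24 h and 168 and 172 at 40 h. At 0 and 12 h the serum/LIF+2i libraries were below those of 2i/LIF, and at 40 h they overlapped. Peg3's log2 fold change at 40 h was 1.28 ± 0.06 (adjusted p = 4.02e-40) in 2i/LIF and 2.46 ± 0.07 (adjusted p = 2.66e-63) in serum/LIF+2i, and the media differed by -1.20 ± 0.08 (adjusted p = 7.84e-25) at 0 h and -0.01 ± 0.05 (adjusted p = 0.87) at 40 h. Usp29, a ubiquitin-specific peptidase (chr7:6730559-6967220), had few counts. In 2i/LIF, Usp29 had 19 and 8 counts at 0 h, 10 and 12 at 12 h, 25 and 15 at 24 h and 28 and 26 at 40 h. Usp29 in serum/LIF+2i had 4 and 2 counts at 0 h, 9 and 5 at 12 h, 18 and 26 at 24 h and 36 and 31 at 40 h. In serum/LIF+2i the 24 and 40 h libraries were clear of those at 0 h, and in 2i/LIF the replicates at 0 h differed. At 40 h its log2 fold change was 0.68 ± 0.37 (adjusted p = 0.0924) in 2i/LIF and 2.75 ± 0.52 (adjusted p = 1.22e-06) in serum/LIF+2i, and the media differed at 0 h by -2.27 ± 0.61 (adjusted p = 0.00161), or -1.44 (adjusted p = 0.195) without replicate 1 of 2i/LIF at 0 h. Zim1, a maternally expressed zinc-finger gene next to them, had 1 to 14 counts per library and was the only tested member called in none of the 13 comparisons.

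In the Snrpn cluster on chromosome 7, the homologue of the Prader-Willi region, the genes are expressed from the paternal copy. Ndn, which encodes necdin of the MAGE family (chr7:62348277-62349928), rose by 12 h. In 2i/LIF, Ndn was at 7.07 and 8.51 CPM at 0 h, 10.4 and 12.8 at 12 h, 13.6 and 20.7 at 24 h and 14.4 and 16 at 40 h. Ndn in serum/LIF+2i was at 4.41 and 6.90 CPM at 0 h, 13.5 and 14.1 at 12 h, 12.9 and 14.1 at 24 h and 15.6 and 14.9 at 40 h. Every library at 12 to 40 h was above those at 0 h of its medium. Ndn's log2 fold change at 40 h was 0.95 ± 0.19 (adjusted p = 2.94e-06) in 2i/LIF and 1.43 ± 0.18 (adjusted p = 1.93e-11) in serum/LIF+2i. Magel2, a MAGE-family gene that acts with E3 ubiquitin ligases (chr7:62376979-62381640), rose from the floor. In 2i/LIF, Magel2 had 2 and 2 counts at 0 h, 9 and 8 at 12 h, 18 and 23 at 24 h and 45 and 31 at 40 h. Magel2 in serum/LIF+2i had 1 and 1 counts at 0 h, 17 and 7 at 12 h, 34 and 39 at 24 h and 85 and 92 at 40 h. Its libraries were higher at each later time in both media. The fitted log2 fold change at 40 h was 3.87 ± 0.52 (adjusted p = 7.35e-11) in 2i/LIF and 5.64 ± 0.50 (adjusted p = 2.32e-19) in serum/LIF+2i, and the ratio of summed counts was 15.3 (95% interval 5.75 to 57.7) and 54.9 (95% interval 15 to 457).

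Mkrn3, a makorin RING-finger protein (chr7:62417593-62420153), had small differences between times. In 2i/LIF, Mkrn3 was at 10.2 and 8.05 CPM at 0 h, 8.91 and 9.09 at 12 h, 10.3 and 9.88 at 24 h and 13 and 13.5 at 40 h. Mkrn3 in serum/LIF+2i was at 9.26 and 10.9 CPM at 0 h, 7.84 and 11 at 12 h, 9.51 and 9.78 at 24 h and 12.2 and 12.6 at 40 h. Only the 40 h libraries were above those at 0 h in both media. Its log2 fold change at 40 h was 0.55 ± 0.18 (adjusted p = 0.00468) in 2i/LIF, lost without replicate 2 at 0 h at 0.38 (adjusted p = 0.129), and 0.30 ± 0.16 (adjusted p = 0.0953) in serum/LIF+2i. Peg12, a FRAT-family relative of GSK3-binding proteins, ran from 2.32 to 8.41 CPM, and in serum/LIF+2i it rose at 12 h by 0.92 ± 0.23 (adjusted p = 0.000409) and fell at 24 h with -0.73 ± 0.29 (adjusted p = 0.0209). The Peg12 fall was lost when replicate 2 at 0 h or replicate 1 at 24 h was left out, at -0.54 (adjusted p = 0.213) and -0.60 (adjusted p = 0.126). Snrpn, which encodes a splicing protein, had 1 to 14 counts per library and was not tested. It shares 10% of its exonic bases with Snurf, made from the same transcript, and 27.3% with Gm38393, and Snurf had 0 counts in all 16 libraries. How reads over shared exons were counted is not stated. Snhg14, the long transcript that continues from this locus, was looked at after its values were seen, and it went from 122 and 151 to 815 and 679 counts in 2i/LIF and from 147 and 126 to 1008 and 736 in serum/LIF+2i, with log2 fold changes of 2.14 ± 0.12 (adjusted p = 9.77e-15) and 1.98 ± 0.12 (adjusted p = 3.96e-14).

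Of the Peg10-Sgce cluster on chromosome 6, Peg10, a retrotransposon-derived gene needed in the placenta (chr6:4747306-4760517), was among the most strongly raised of the abundant members. In 2i/LIF, Peg10 was at 49.6 and 43.7 CPM at 0 h, 66.9 and 57.1 at 12 h, 93 and 90.1 at 24 h and 233 and 258 at 40 h. Peg10 in serum/LIF+2i was at 28.9 and 32 CPM at 0 h, 72 and 79.4 at 12 h, 125 and 124 at 24 h and 373 and 394 at 40 h. At 0 h the serum/LIF+2i libraries were below those of 2i/LIF, and from 12 h on they were above. Peg10's log2 fold change at 40 h was 2.40 ± 0.07 (adjusted p = 7.93e-55) in 2i/LIF and 3.65 ± 0.06 (adjusted p = 7.48e-71) in serum/LIF+2i. Sgce (epsilon-sarcoglycan), which starts beside it, ran from 0.548 to 8.36 CPM and rose at 40 h, with 1.76 ± 0.37 (adjusted p = 1.11e-05) and 1.90 ± 0.28 (adjusted p = 1.3e-09). Asb4, an ankyrin-repeat and SOCS-box protein known to be expressed from the maternal copy (chr6:5383386-5433022), went the other way in 2i/LIF. In 2i/LIF, Asb4 had 10 and 16 counts at 0 h, 6 and 5 at 12 h, 0 and 1 at 24 h and 4 and 1 at 40 h. Asb4 in serum/LIF+2i had 3 and 9 counts at 0 h, 5 and 2 at 12 h, 3 and 4 at 24 h and 9 and 4 at 40 h. The libraries at 12 to 40 h of 2i/LIF were below those at 0 h, while those of serum/LIF+2i overlapped. Asb4's log2 fold change at 40 h was -2.63 ± 0.66 (adjusted p = 0.000249) in 2i/LIF, which moved to -3.80 (adjusted p = 0.000813) and -2.03 (adjusted p = 0.0139) without replicate 1 or 2 at 40 h, and -0.56 ± 0.64 (adjusted p = 0.441) in serum/LIF+2i.

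All 3 genes whose expressed copy depends on the isoform or tissue rose at 40 h in both media. Grb10, an adaptor that restrains insulin and IGF signalling (chr11:11930499-12037428), rose at each time. In 2i/LIF, Grb10 was at 93.9 and 96.8 CPM at 0 h, 126 and 131 at 12 h, 251 and 250.1 at 24 h and 457 and 554 at 40 h. Grb10 in serum/LIF+2i was at 133 and 137 CPM at 0 h, 165 and 170.2 at 12 h, 393 and 425 at 24 h and 1037 and 1049 at 40 h. Each time lay above the one before in both media, and the serum/LIF+2i libraries were higher throughout. Grb10's log2 fold change at 40 h was 2.40 ± 0.08 (adjusted p = 2.44e-14) in 2i/LIF and 2.95 ± 0.07 (adjusted p = 3.08e-16) in serum/LIF+2i. Gnas, the locus of the stimulatory G protein alpha subunit (chr2:174284320-174346744), started higher in serum/LIF+2i. In 2i/LIF, Gnas was at 151 and 139.9 CPM at 0 h, 136 and 143 at 12 h, 227 and 221 at 24 h and 320.2 and 303 at 40 h. Gnas in serum/LIF+2i was at 192 and 201 CPM at 0 h, 170.0 and 176 at 12 h, 218 and 225 at 24 h and 294 and 298 at 40 h. By 40 h the libraries were the highest of each medium and the media were close. Gnas had a log2 fold change at 40 h of 1.10 ± 0.05 (adjusted p = 8.93e-45) in 2i/LIF and 0.59 ± 0.04 (adjusted p = 4.02e-25) in serum/LIF+2i.

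Inpp5f, an inositol phosphatase (chr7:128611181-128696436), rose at 24 and 40 h. In 2i/LIF, Inpp5f was at 19 and 15.8 CPM at 0 h, 16 and 16 at 12 h, 20.7 and 23.4 at 24 h and 45.7 and 40.1 at 40 h. Inpp5f in serum/LIF+2i was at 18.4 and 14.2 CPM at 0 h, 15.5 and 17.4 at 12 h, 26.3 and 25 at 24 h and 50.3 and 54.6 at 40 h. Its 40 h libraries were the highest of each medium. The log2 fold change at 40 h was 1.31 ± 0.12 (adjusted p = 2.98e-19) in 2i/LIF and 1.68 ± 0.11 (adjusted p = 1.83e-29) in serum/LIF+2i. Counts per gene do not separate the isoforms of Grb10, Gnas or Inpp5f, and 13.1% of the exonic bases of Gnas lie opposite Gm20721 and 8.8% opposite Nespas.

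Among the single genes, Plagl1, a zinc-finger factor also called Zac1 (chr10:13090832-13131694), fell furthest of the tested members. In 2i/LIF, Plagl1 was at 155 and 154 CPM at 0 h, 30.3 and 32.2 at 12 h, 6.25 and 8.97 at 24 h and 2.38 and 2.58 at 40 h. Plagl1 in serum/LIF+2i was at 152 and 158 CPM at 0 h, 23.2 and 23.4 at 12 h, 3.87 and 5.50 at 24 h and 3.45 and 3.97 at 40 h. Each later time was below the one before in 2i/LIF, while in serum/LIF+2i the 24 and 40 h libraries overlapped. Plagl1's log2 fold change was -2.30 ± 0.08 (adjusted p = 1.02e-53) at 12 h and -5.95 ± 0.13 (adjusted p = 4.71e-75) at 40 h in 2i/LIF, and -2.73 ± 0.08 (adjusted p = 1.21e-60) and -5.39 ± 0.11 (adjusted p = 3.07e-79) in serum/LIF+2i. Mest, an enzyme of the alpha/beta hydrolase fold (chr6:30733506-30748466), rose by 12 h and levelled off by 24 h. In 2i/LIF, Mest was at 37.1 and 37.1 CPM at 0 h, 119 and 126 at 12 h, 215 and 201 at 24 h and 215 and 214 at 40 h. Mest in serum/LIF+2i was at 42.5 and 38.3 CPM at 0 h, 119 and 120.4 at 12 h, 192 and 184 at 24 h and 207 and 218 at 40 h. At 24 h the serum/LIF+2i libraries were slightly below those of 2i/LIF, and at the other times the media were close. Mest's log2 fold change at 40 h was 2.53 ± 0.07 (adjusted p = 2.05e-66) in 2i/LIF and 2.39 ± 0.06 (adjusted p = 5.82e-67) in serum/LIF+2i. The end of Mest overlaps Copg2 on the other strand over 23.1% of its exonic bases, and Copg2 had log2 fold changes of -0.05 ± 0.06 (adjusted p = 0.492) and 0.02 ± 0.06 (adjusted p = 0.726).

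Zdbf2, a zinc-finger protein (chr1:63200358-63314576), rose in both media. In 2i/LIF, Zdbf2 was at 204 and 210.1 CPM at 0 h, 348 and 349 at 12 h, 291 and 302 at 24 h and 286 and 275 at 40 h. Zdbf2 in serum/LIF+2i was at 215 and 204 CPM at 0 h, 328 and 323 at 12 h, 332 and 308 at 24 h and 357 and 350.0 at 40 h. All libraries at 12 to 40 h were above those at 0 h. The log2 fold change of Zdbf2 at 40 h was 0.44 ± 0.04 (adjusted p = 1.01e-16) in 2i/LIF and 0.75 ± 0.04 (adjusted p = 6.68e-35) in serum/LIF+2i. Impact, which inhibits the amino acid sensor kinase GCN2, was the only member called in opposite directions at 40 h. In 2i/LIF, Impact was at 222 and 218 CPM at 0 h, 200.2 and 183 at 12 h, 234 and 224 at 24 h and 201 and 208 at 40 h. Impact in serum/LIF+2i was at 179 and 167 CPM at 0 h, 162 and 164 at 12 h, 233 and 223 at 24 h and 231 and 224 at 40 h. In serum/LIF+2i the 24 and 40 h libraries were above those at 0 and 12 h, whereas in 2i/LIF all times were close. Impact's log2 fold change at 40 h was 0.40 ± 0.05 (adjusted p = 1.17e-13) in serum/LIF+2i and -0.11 ± 0.05 (adjusted p = 0.0347) in 2i/LIF. The small 2i/LIF call was lost under other scalings, for example -0.04 (adjusted p = 0.451) with library size only and -0.09 (adjusted p = 0.193) with DESeq2, and without replicate 1 or 2 of 2i/LIF at 0 h or replicate 1 at 40 h, at -0.10 (adjusted p = 0.123), -0.12 (adjusted p = 0.0737) and -0.08 (adjusted p = 0.187).

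Another 5 members lie within introns of genes that are not members: Nnat within Blcap, Nap1l5 within Herc3, Mcts2 within H13, Zrsr1 within Commd1 and the noncoding RNA Peg13 within Trappc9. Nap1l5, Mcts2 and Zrsr1 are retrogenes, copies made through an RNA intermediate. Nnat, a membrane proteolipid of developing neurons (chr2:157560078-157562525), rose. In 2i/LIF, Nnat was at 3.79 and 2.89 CPM at 0 h, 3.70 and 3.48 at 12 h, 15.4 and 14 at 24 h and 15.2 and 16 at 40 h. Nnat in serum/LIF+2i was at 2.06 and 2.06 CPM at 0 h, 5.68 and 3.83 at 12 h, 10.6 and 12 at 24 h and 16.2 and 19 at 40 h. The 24 and 40 h libraries were clear of those at 0 h in both media. Nnat's log2 fold change at 40 h was 2.23 ± 0.22 (adjusted p = 6.9e-17) in 2i/LIF and 3.08 ± 0.22 (adjusted p = 2.36e-25) in serum/LIF+2i, while its host Blcap fell slightly, with -0.50 ± 0.11 (adjusted p = 2.88e-05) and -0.22 ± 0.10 (adjusted p = 0.0429). Nap1l5, a relative of nucleosome assembly proteins (chr6:58905233-58907126), rose from a few counts. In 2i/LIF, Nap1l5 had 4 and 1 counts at 0 h, 16 and 15 at 12 h, 26 and 18 at 24 h and 16 and 27 at 40 h. Nap1l5 in serum/LIF+2i had 1 and 4 counts at 0 h, 14 and 12 at 12 h, 22 and 17 at 24 h and 25 and 22 at 40 h. Every library at 12 to 40 h was above those at 0 h. Nap1l5's log2 fold change at 40 h was 2.75 ± 0.58 (adjusted p = 1.54e-05) in 2i/LIF, or 4.07 (adjusted p = 6.81e-05) and 2.00 (adjusted p = 0.00747) without replicate 1 or 2 at 0 h. For serum/LIF+2i the Nap1l5 value was 2.49 ± 0.58 (adjusted p = 8.15e-05), or 1.84 (adjusted p = 0.0122) and 3.73 (adjusted p = 0.000215) without replicate 1 or 2 at 0 h. Its host Herc3 rose by 0.46 ± 0.11 (adjusted p = 8.74e-05) in 2i/LIF and 0.80 ± 0.11 (adjusted p = 3.57e-11) in serum/LIF+2i.

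Mcts2, a retrogene of the translation factor gene Mcts1 (chr2:152687148-152687946), and its host H13 were both called higher by small amounts. In 2i/LIF, Mcts2 was at 23.4 and 19.7 CPM at 0 h, 26.7 and 31.7 at 12 h, 34.2 and 28.9 at 24 h and 26.9 and 31 at 40 h. Mcts2 in serum/LIF+2i was at 24.1 and 25 CPM at 0 h, 35.5 and 35.9 at 12 h, 26.7 and 29.1 at 24 h and 28.2 and 30.2 at 40 h. Both 40 h libraries were above both 0 h libraries in each medium, by a small margin. The log2 fold change of Mcts2 at 40 h was 0.43 ± 0.12 (adjusted p = 0.00111) in 2i/LIF and 0.25 ± 0.11 (adjusted p = 0.0335) in serum/LIF+2i, and that of H13 was 0.34 ± 0.09 (adjusted p = 0.000328) and 0.59 ± 0.08 (adjusted p = 4.51e-11). The Mcts2 calls were lost without replicate 2 of 2i/LIF at 0 h, at 0.30 (adjusted p = 0.0746), and without serum/LIF+2i replicate 1 or 2 at 0 h or replicate 2 at 40 h, at 0.22 (adjusted p = 0.144), 0.28 (adjusted p = 0.0659) and 0.20 (adjusted p = 0.159). Zrsr1, a retrogene related to the splicing factor gene Zrsr2 (chr11:22972005-22976496), fell, as did its host. In 2i/LIF, Zrsr1 was at 35.7 and 34.6 CPM at 0 h, 36.9 and 35.2 at 12 h, 26 and 26.6 at 24 h and 21.3 and 19 at 40 h. Zrsr1 in serum/LIF+2i was at 38.8 and 32.3 CPM at 0 h, 30.8 and 30.8 at 12 h, 23.2 and 25.5 at 24 h and 20.8 and 23.4 at 40 h. The 24 and 40 h libraries were below those at 0 h in both media. At 40 h the log2 fold change of Zrsr1 was -0.80 ± 0.12 (adjusted p = 8.49e-10) in 2i/LIF and -0.69 ± 0.10 (adjusted p = 2.55e-09) in serum/LIF+2i, and that of Commd1 was -0.17 ± 0.08 (adjusted p = 0.0475) and -0.35 ± 0.07 (adjusted p = 3.67e-06). Commd1 overlaps 9.2% of the exonic bases of Zrsr1 on the other strand. Peg13 ran from 1.38 to 6.89 CPM and had 0.83 ± 0.36 (adjusted p = 0.0351) in 2i/LIF, lost without replicate 1 at 0 h at 0.50 (adjusted p = 0.297) and without replicate 1 or 2 at 40 h at 0.92 (adjusted p = 0.0539) and 0.74 (adjusted p = 0.124), while Trappc9 fell with -0.44 ± 0.11 (adjusted p = 0.000281) and -0.50 ± 0.10 (adjusted p = 6.43e-06).

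**Figure D3:**
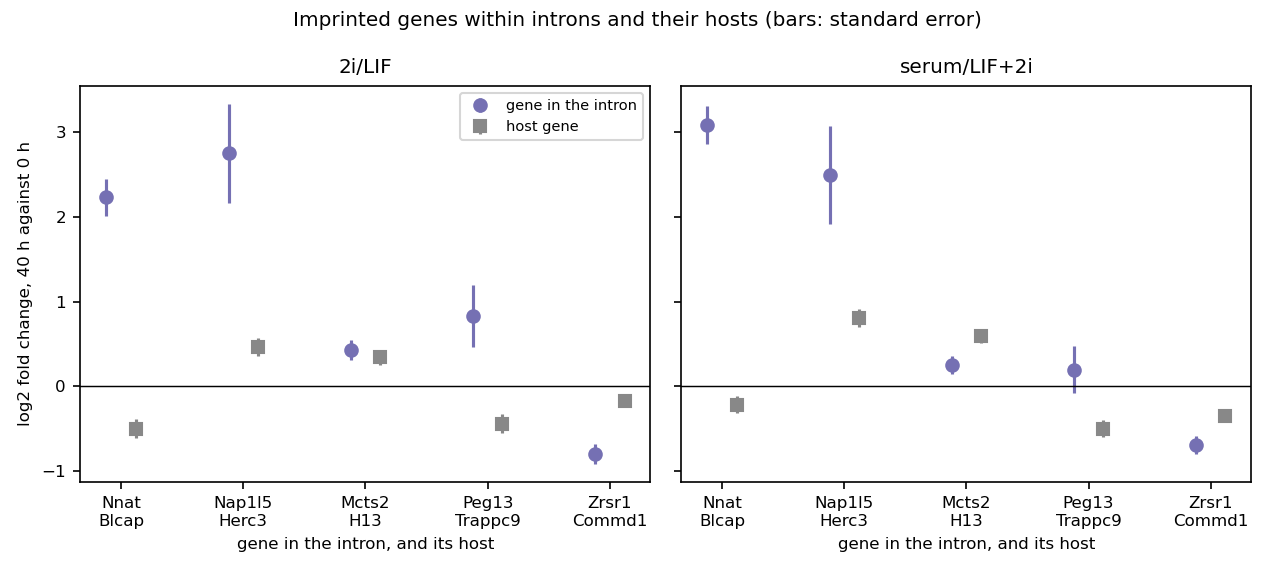
Log2 fold change from 0 to 40 h of exit (y axis, bars for the standard error) of 5 imprinted genes within introns (circles) and their host genes (squares), in 2i/LIF on the left and serum/LIF+2i on the right. Nnat rises by 2.23 and 3.08 while its host Blcap is at -0.50 and -0.22, and Mcts2 is at 0.43 and 0.25 beside its host H13 at 0.34 and 0.59.

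For comparison, 39 host and neighbouring genes were listed, of which 36 had a row and 26 were tested. At 40 h, 8 were called higher and 11 lower for 2i/LIF, against 10 and 11 for serum/LIF+2i. These are 30.8% higher and 42.3% lower for 2i/LIF, beside 34.1% and 34.7% of all tested genes, with 38.5% and 42.3% beside 35.3% and 35.3% for serum/LIF+2i. The smallest adjusted p belonged to Cobl, the neighbour of Grb10, which fell with -3.56 ± 0.06 (adjusted p = 3.29e-86) in 2i/LIF and -4.23 ± 0.06 (adjusted p = 9.16e-99) in serum/LIF+2i while Grb10 rose. Phactr2, next to Plagl1, fell in 2i/LIF with -2.69 ± 0.16 (adjusted p = 6.67e-32).

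Levels can be compared between genes per kilobase of the deposited gene length. On that scale Rian led the 37 at 0 h in 2i/LIF, with a mean of 69.4 CPM per kb, followed by Impact at 64.1 and Plagl1 at 29.4. At 40 h Rian still led in 2i/LIF, at 159 CPM per kb, followed by Grb10 at 97.9 and Mest at 77.1. In serum/LIF+2i at 0 h the first 3 were Impact at 50.4, Rian at 43.2 and Gnas at 32.4 CPM per kb. By 40 h in that medium they were Grb10 at 202, Rian at 167 and Mest at 76.4 CPM per kb.

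Before exit, the members were called between the maintenance media about as often as all tested genes. At 0 h, 4 of the 35 were called higher in serum/LIF+2i than in 2i/LIF and 8 lower, which is 34.3% in either direction (background 14.6% and 18.4%, 33% in either direction). The lower ones included the 3 noncoding RNAs of the Dlk1-Meg3 cluster, with log2 fold changes of -0.69 ± 0.05 (adjusted p = 1.34e-24) for Meg3, -0.68 ± 0.05 (adjusted p = 9.19e-26) for Rian and -0.85 ± 0.16 (adjusted p = 4.67e-06) for Mirg. In each case both serum/LIF+2i libraries were below both 2i/LIF libraries. Peg10 was at -0.61 ± 0.10 (adjusted p = 1.27e-07), Impact at -0.35 ± 0.05 (adjusted p = 1.74e-09) and Igf2r at -0.29 ± 0.05 (adjusted p = 5.35e-06), beside Peg3 and Usp29 given above. Higher in serum/LIF+2i were Grb10, with 0.50 ± 0.09 (adjusted p = 0.000312), Gnas, with 0.44 ± 0.05 (adjusted p = 6.63e-13), Igf2, with 1.05 ± 0.42 (adjusted p = 0.0403), and H19, with 2.96 ± 1.13 (adjusted p = 0.0337). The last 2 rest on few counts: Igf2 was at 0.72 (adjusted p = 0.316) without replicate 2 of 2i/LIF and 0.76 (adjusted p = 0.305) without replicate 2 of serum/LIF+2i. H19 was at 1.99 (adjusted p = 0.267) and 1.68 (adjusted p = 0.492) without replicate 2 of 2i/LIF or replicate 1 of serum/LIF+2i, and the ratio of its summed counts was 9.1 (95% interval 1.29 to 395).

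At 12 h, 9 of the 35 were called higher in serum/LIF+2i and 8 lower (background 14.8% and 15.5%, 30.3% in either direction), and at 24 h 7 and 7 (background 14.1% and 17%, 31.1% in either direction). At 40 h the balance was one-sided, with 16 called higher and 1 lower (background 13.9% and 13.4%, 27.3% in either direction), the lower one being Peg12 at -0.75 ± 0.25 (adjusted p = 0.0137). With DESeq2 10 were called higher and 0 lower, since the calls of H19, Dlk1, Rtl1, Magel2, Sgce, Inpp5f and Peg12 were lost, with adjusted p from 0.059 for H19 to 0.223 for Magel2. The values were 1.56 ± 0.09 (adjusted p = 1.26e-32) for Cdkn1c, 1.14 ± 0.25 (adjusted p = 0.000178) for H19, 1.07 ± 0.20 (adjusted p = 9.13e-06) for Igf2, 1.05 ± 0.06 (adjusted p = 9.39e-10) for Grb10 and 0.65 ± 0.04 (adjusted p = 9.12e-23) for Peg10. Phlda2, Zdbf2, Igf2r and Meg3 were higher by smaller amounts, with 0.48 ± 0.10, 0.33 ± 0.04, 0.33 ± 0.05 and 0.26 ± 0.04. Rian and Mirg, lower in serum/LIF+2i before exit, were at 0.08 ± 0.04 (adjusted p = 0.115) and 0.02 ± 0.09 (adjusted p = 0.912). Several 40 h calls depended on single libraries: those of Rtl1, Sgce, Kcnq1ot1, Impact and Peg12 were lost without replicate 1 of 2i/LIF, and those of Dlk1, Magel2, Inpp5f, Kcnq1ot1 and Peg12 without replicate 2. Without replicate 1 of serum/LIF+2i the calls of Sgce, Kcnq1ot1, Impact and Peg12 were lost, and without replicate 2 those of Dlk1, Magel2, Rtl1 and Inpp5f. Among them, Dlk1 was at 0.67 (adjusted p = 0.0886) and 0.57 (adjusted p = 0.169), and Rtl1 at 0.62 (adjusted p = 0.231) and 0.56 (adjusted p = 0.246).

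**Figure D4:**
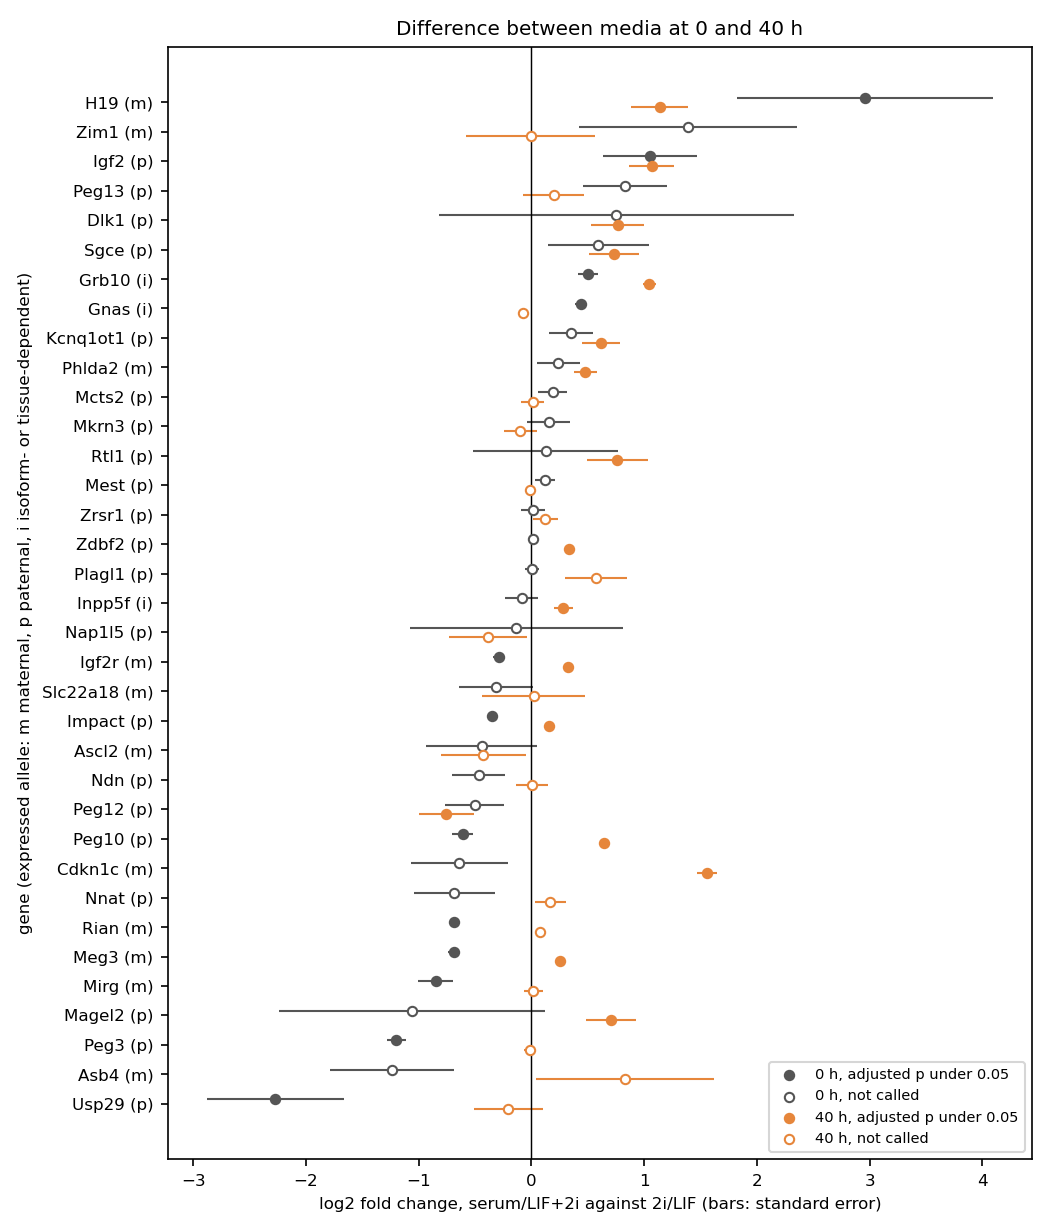
Log2 fold change of serum/LIF+2i against 2i/LIF (x axis, bars for the standard error) for the 35 tested imprinted genes (y axis) before exit (grey) and at 40 h (orange), filled where the adjusted p was under 0.05. Usp29, Peg3 and the 3 noncoding RNAs of the Dlk1-Meg3 cluster are low in serum/LIF+2i before exit and at or above 2i/LIF at 40 h except for Usp29 at -0.20 and Peg3 at -0.01, and Cdkn1c moves to 1.56.

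The difference between the media in the size of the exit effect was tested directly. At 40 h it was called positive, meaning a more positive change in serum/LIF+2i, for 11 of the 35 and negative for 1 (background 14.8% and 12.8%, 27.6% in either direction). It was called for 4 and 1 at 12 h (background 4.8% and 4.4%, 9.2% in either direction) and for 8 and 3 at 24 h (background 9.77% and 11%, 20.8% in either direction). DESeq2 called 3 at 12 h, with Plagl1 and Phlda2 lost at -0.42 (adjusted p = 0.116) and 0.97 (adjusted p = 0.0702). Left-out libraries brought the total at 12 h from 5 down to 3 (without replicate 2 of either medium at 12 h) and that at 24 h from 11 to 7 (without replicate 1 of 2i/LIF at 0 h). Cdkn1c had the largest called difference at 40 h, 2.20 ± 0.45 (adjusted p = 3.76e-05), and 2.85 (adjusted p = 1.53e-05) when replicate 1 of serum/LIF+2i at 0 h was left out. Usp29 was next with 2.07 ± 0.69 (adjusted p = 0.0162), a call that was lost with DESeq2 at 2.13 (adjusted p = 0.0762) and when either replicate 1 of 2i/LIF or replicate 2 of serum/LIF+2i was left out at 0 h, at 1.23 (adjusted p = 0.33) and 1.66 (adjusted p = 0.114). Peg10 followed with 1.26 ± 0.11 (adjusted p = 5.81e-18), Peg3 with 1.18 ± 0.10 (adjusted p = 6.25e-20) and Meg3 with 0.94 ± 0.06 (adjusted p = 5.16e-27). Gnas was the one called negative, at -0.51 ± 0.06 (adjusted p = 6.52e-11). For Plagl1 and Mest the 40 h difference was not called, at 0.57 ± 0.28 (adjusted p = 0.131) and -0.14 ± 0.10 (adjusted p = 0.323). These differences and the comparison of media at 0 h use the same 0 h libraries, so a gene that was low in serum/LIF+2i before exit enters both.

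Genes that read, keep or change the methylation of imprints were listed as the other part of the pathway (21 genes, all tested). At 40 h, 7 were called higher and 10 lower for 2i/LIF, against 7 and 11 for serum/LIF+2i. As shares these were 33.3% called higher and 47.6% lower for 2i/LIF, beside 34.1% and 34.7% of all tested genes, with 33.3% and 52.4% beside 35.3% and 35.3% for serum/LIF+2i. Zfp57 stood at 402 and 406 CPM at 0 h, 738 and 757 at 12 h and 181 and 182 at 40 h in 2i/LIF, and at 518 and 499, 680.5 and 655 and 163 and 168 CPM in serum/LIF+2i. Its libraries were highest at 12 h and lowest at 40 h in both media. Zfp57's log2 fold change at 40 h was -1.16 ± 0.04 (adjusted p = 1.51e-51) in 2i/LIF and -1.62 ± 0.04 (adjusted p = 1.03e-68) in serum/LIF+2i. The de novo methyltransferase genes Dnmt3a and Dnmt3b rose, Dnmt3a with 4.14 ± 0.04 (adjusted p = 1.88e-107) and 4.26 ± 0.05 (adjusted p = 8.14e-108), and Dnmt3b with 4.11 ± 0.04 (adjusted p = 1.2e-84) and 3.43 ± 0.04 (adjusted p = 6.93e-80). The maintenance genes Dnmt1 and Uhrf1 and the ZFP57 partner Trim28 were chosen after their values were seen: Dnmt1 fell with -0.37 ± 0.04 (adjusted p = 3.51e-16) and -0.34 ± 0.04 (adjusted p = 8.44e-15), and Uhrf1 with -0.71 ± 0.04 (adjusted p = 2.08e-37) and -0.85 ± 0.04 (adjusted p = 1.56e-44). Trim28 was at -0.08 ± 0.03 (adjusted p = 0.0205) in 2i/LIF and -0.39 ± 0.03 (adjusted p = 3.12e-21) in serum/LIF+2i. Methylation itself was not measured, so whether imprints were kept in these cells cannot be read from the counts.

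**Figure D5:**
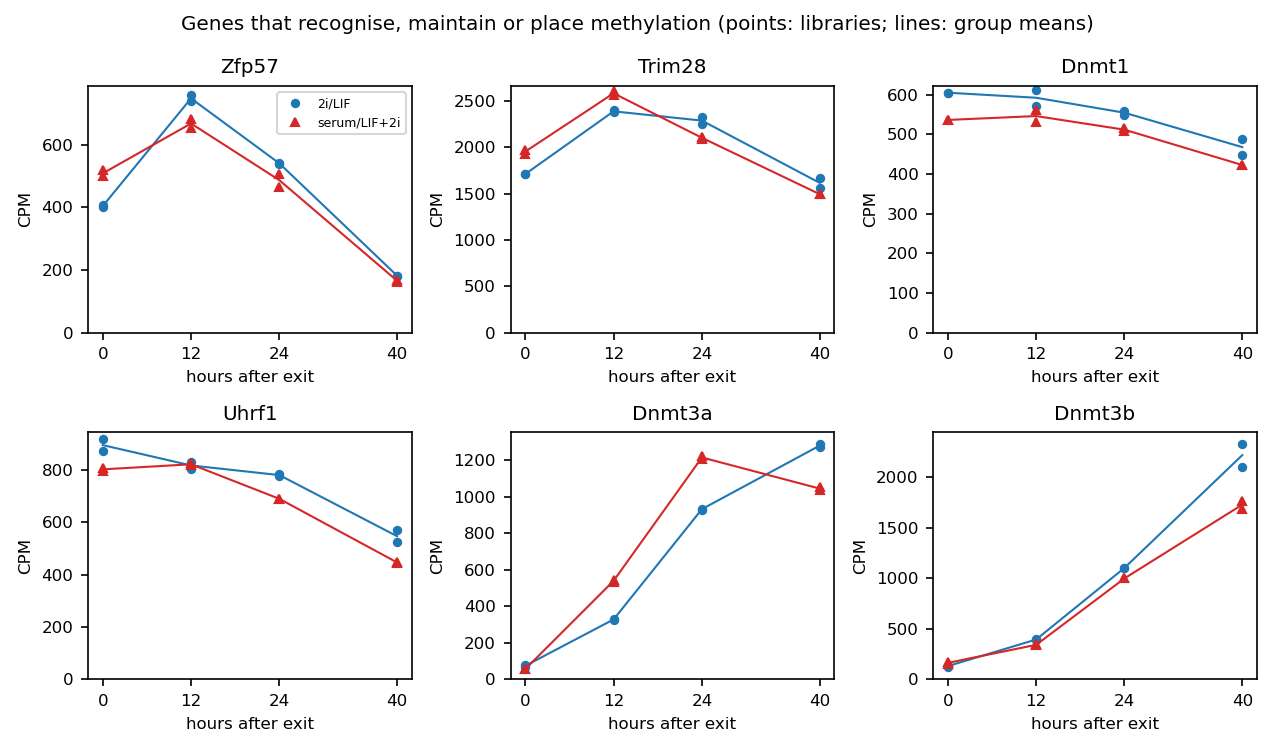
CPM (y axis) against hours after exit (x axis) for Zfp57, Trim28, Dnmt1, Uhrf1, Dnmt3a and Dnmt3b, with points for libraries and lines for group means (blue circles, 2i/LIF; red triangles, serum/LIF+2i). Zfp57 peaks at 12 h and is lowest at 40 h, and Dnmt3a and Dnmt3b climb in both media.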

How the data were processed

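RNA was sequenced from mouse ES cells in 16 libraries (TRIzol RNA, TruSeq Stranded mRNA kit, per the labels' protocols), and the sample titles give groups and replicate numbers. Per the submitters' processing notes, the tools were fastp, STAR and featureCounts with genome build mm10 (GRCm38), and their versions, the annotation and the strand setting are not given in the sources used here. The authors deposited whole-number counts per gene, not normalized, with Entrez identifier, symbol and gene length per the file headers; 1049 of 27179 genes had no symbol, and 0 columns belonged to no library. Genes were filtered with filterByExpr (minimum count 10, total 15; 14288 kept) and scaled by TMM in edgeR 4.0.16 under R 4.3.3. One model with a term per group (8 residual degrees of freedom) was fitted, and 13 comparisons were tested with the two-sided quasi-likelihood F test, with Benjamini-Hochberg adjustment over all tested genes and calls at adjusted p under 0.05. Standard errors (SE, printed after ±) follow from the F statistic of each log2 fold change. The members, the lists of hosts and neighbours, regulators, near copies and cell markers, and the rule for naming were chosen with earlier results of these data known, so no test over a list was made. By that rule, members with a group mean of at least 10 CPM, or a called absolute log2 fold change of at least 2, were given in every library, and from a list the 3 genes with the smallest adjusted p at 40 h or those overlapping a member could be named. Coordinates are RefSeq gene spans on GRCm38.p6, and overlaps and shared words of 50 bases come from GENCODE M21 on the same assembly. As the annotation behind the counts is not given, the shares of exonic bases need not hold for the exons counted. The procedure was tested on simulated data. Alternatives were DESeq2 1.42.0, other scalings and filters, fewer groups in the fit, no ribosomal RNA genes, a fold threshold, a replicate block and each library left out. Counts carry no molecular identifiers, so intervals and the floor cover counting error only.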

Additional observations from a re-analysis of the deposited data

Results flagged for a closer look

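The effect of exit differed between the media for 28 pairs of gene and time, by edgeR's test of the difference itself (log2 fold change in serum/LIF+2i minus that in 2i/LIF, adjusted p under 0.05 over all tested genes). At 12 h the differences were 1.38 for Peg12, 0.96 for Phlda2, 0.91 for Peg10, 0.42 for Peg3 and -0.43 for Plagl1. At 24 h they were 1.96 for Usp29, 1.25 for Cdkn1c, 1.11 for Peg3, 1.05 for Peg10, 0.52 for Igf2r, 0.34 for Impact, 0.33 for Meg3 and 0.19 for Rian. Negative differences at 24 h were -0.68 for Plagl1, -0.45 for Gnas and -0.27 for Mest. At 40 h the positive ones were 2.20 for Cdkn1c, 2.07 for Usp29, 1.26 for Peg10, 1.18 for Peg3, 0.94 for Meg3, 0.86 for Mirg, 0.76 for Rian, 0.62 for Igf2r, 0.55 for Grb10, 0.50 for Impact and 0.32 for Zdbf2, and Gnas was at -0.51. Those of Usp29 were lost without replicate 1 of 2i/LIF at 0 h, at 1.14 (adjusted p = 0.426) for 24 h and 1.23 (adjusted p = 0.33) for 40 h. The Usp29 calls were also lost when the second 0 h library of serum/LIF+2i was left out, and that of 24 h without replicate 2 of either medium at 24 h. Cdkn1c at 24 h was lost without replicate 1 or 2 of 2i/LIF at 0 h, replicate 1 of 2i/LIF at 24 h or replicate 2 of serum/LIF+2i at 0 h, for example at 1.33 (adjusted p = 0.0739). Among the small differences, Mest at 24 h was lost without any of 10 libraries taken singly, for example at -0.26 (adjusted p = 0.135), and Rian at 24 h without replicate 1 of either medium at 0 h or replicate 2 of either at 24 h, for example at 0.19 (adjusted p = 0.0614). Plagl1 was lost at 12 h without replicate 2 of 2i/LIF or either replicate of serum/LIF+2i at that time, for example at -0.38 (adjusted p = 0.104), and at 24 h without replicate 2 of 2i/LIF or replicate 1 of serum/LIF+2i, for example at -0.41 (adjusted p = 0.341). Phlda2 at 12 h was lost without replicate 2 of 2i/LIF at 0 or 12 h or of serum/LIF+2i at 12 h, for example at 0.91 (adjusted p = 0.0753), and Peg3 at 12 h when the first 0 h library of serum/LIF+2i was left out, at 0.24 (adjusted p = 0.237). Meg3, Rian, Mirg, Peg3, Peg10, Usp29, Impact and Igf2r had also been called lower in serum/LIF+2i at 0 h, and Grb10 and Gnas higher, and those same 0 h libraries enter each difference.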

How the results depend on the processing

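None of the 236 called values of members changed sign under any of the 25 alternatives in which it was tested, and values called neither in the main analysis nor in the alternative did so in 181 pairs of value and alternative. The fold threshold keeps the fold changes of the main fit, so no sign could change there. A mean of at least 5 CPM left 176 of the called values to test. DESeq2 lost 35 of the 235 calls it could test, and brought the members called to 10 for serum/LIF+2i against 2i/LIF at 40 h (main 17) and to 3 for the difference between media at 12 h (main 5). A mean of at least 5 CPM left 22 members to test, of which 17 and 19 were called at 24 and 40 h of exit from 2i/LIF and 11 between media at 40 h. With an absolute log2 fold change of at least 1 required, 8 and 13 were called at 12 and 24 h of exit from 2i/LIF, 11 and 14 from serum/LIF+2i, 4, 4, 3 and 4 between media at 0, 12, 24 and 40 h, and 1, 4 and 4 for the difference at 12, 24 and 40 h. Leaving out each library in turn gave 14 to 20, 22 to 26 and 27 to 30 called members for exit from 2i/LIF at 12, 24 and 40 h, and 18 to 22, 22 to 26 and 26 to 28 for serum/LIF+2i. Between media it gave 10 to 13, 14 to 18, 10 to 15 and 12 to 17 at 0, 12, 24 and 40 h, and for the difference 3 to 6, 7 to 12 and 11 to 13. The share of all tested genes called under these alternatives is not given beside the counts. The counts therefore show only how far the members' calls held and are not set against other genes. Deviations from the group mean showed no common pattern by replicate number (correlations from -0.023 to 0.033 over 28 pairs of groups). Taken over all tested genes, these correlations cannot exclude a pairing that touches a small part of the genes. With the replicate block all 236 calls were kept and 3 gained. The members called at 12, 24 and 40 h of exit then came to 20, 26 and 30 for 2i/LIF, with 21, 25 and 27 for serum/LIF+2i. The cause of these shifts was not tested, apart from fewer genes or libraries entering a fit. For genes with few counts, such as Dlk1, H19, Magel2, Airn and Snrpn, counting error is large.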

Other observations

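Near copies of members were looked at because reads could be split between them. Of 4 such genes, 3 were tested, and at 40 h 1 was called higher and 2 lower for 2i/LIF, against 0 and 1 for serum/LIF+2i (68.8% and 70.5% of all tested genes were called). Zrsr2, the parent gene of Zrsr1, fell with -0.63 ± 0.07 (adjusted p = 3.73e-14) in 2i/LIF and -0.65 ± 0.07 (adjusted p = 1.26e-16) in serum/LIF+2i, close to the values of Zrsr1. Mcts1, the parent gene of Mcts2, had 0.38 ± 0.10 (adjusted p = 0.000589) and 0.05 ± 0.09 (adjusted p = 0.617). Of the words of 50 bases in Mcts2 transcripts, 0.7% occur in transcripts of another gene, against 62.1% for Igf2, 24.9% for Cdkn1c and 21.2% for Mest, whose shared words come from overlapping genes.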
